A study of Mus musculus with 30 samples.

Results

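The genes described here are the DNA damage checkpoint kinases Chek1, Chek2, Atr, Atm and Wee1, the Cdc25 phosphatases Cdc25a, Cdc25b and Cdc25c, and the checkpoint loading proteins Rad17 and Rad9. Members were every row of the array table whose gene symbol equals 1 of these 10 names, ignoring case. This gave 20 of 25697 probes and 9 of 18097 gene symbols, since no row carried the symbol Atr. The kinase ATR itself is therefore without a value.

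When DNA is broken or a replication fork stalls, the kinases ATM and ATR are activated and phosphorylate CHK2 and CHK1. Rad17 loads the clamp that contains Rad9 onto damaged DNA, and the clamp helps ATR to act on CHK1. CHK1 and CHK2 phosphorylate Cdc25 phosphatases and so keep them from removing the inhibitory phosphate that Wee1 places on the cyclin-dependent kinases. Mouse embryonic stem cells (ESCs) cycle fast with a short G1 phase and are known for high Cdc25a. These proteins are controlled largely by phosphorylation and degradation, which a measurement of mRNA does not read.

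The mRNA was measured in clones of Ainv15, a mouse ESC line that expresses the reverse tetracycline transactivator. In a rescue clone an shRNA depletes the mRNA of the named gene, and doxycycline (Dox, 1 µg/ml) turns on an exogenous copy that the shRNA does not recognize. The groups were Chek1_R, Ppm1g_R, Ppp2r1b_R, Bub1b_R and the control clone Control_R, each kept with Dox or for 5 days without it, with 3 arrays per condition and 30 in all. Chek1 is both a member and a targeted gene, Ppm1g and Ppp2r1b encode a phosphatase and a phosphatase subunit, and Bub1b encodes a spindle checkpoint kinase. Cells were maintained on mouse embryonic fibroblasts in medium with LIF. For the arrays, the study states that feeders were absent both with and without Dox. The labels do not say whether the 3 arrays of a condition came from separate cultures or separate clones, so p-values measure the spread between these arrays, which may be technical.

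The shRNA is what sets a rescue clone apart, and for Chek1_R it is aimed at a member, so the target sequences of the 4 constructs are shown. They are given 5′ to 3′ as the sense strand, as the study lists them. Each has 21 bases, and capitals mark bases 14 to 20, which lie opposite positions 2 to 8 of a guide strand that is the exact reverse complement.
Chek1_R: cccatgtagtagtATCACTTt
Bub1b_R: gcacacttagacaCATCAGCa
Ppm1g_R: gccttgtactgtgCCAAATAt
Ppp2r1b_R: gctccgtctcaacAGTATTAa
By the study's account the rescue vectors of Chek1 and Bub1b lack the shRNA target, because the exogenous cDNA has no 3′ UTR, while those of Ppm1g and Ppp2r1b carry silent changes in it. A probe that lies in the 3′ UTR of Chek1 would read the endogenous mRNA and not the exogenous copy. Where the Chek1 probes lie was not analysed here.

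Values are log2 intensities normalized by neqc and quantiles over the 30 arrays, and a probe counted as detected on an array at a detection p under 0.05. The 17 member probes detected on at least 3 arrays, from 9 genes, were tested with limma among 15151 probes. Differences are log2 values, signed as the first group named minus the second, and changes on Dox withdrawal are without minus with Dox. A probe was called at an adjusted p under 0.05 (Benjamini-Hochberg over all tested probes) and a difference of at least 1.5-fold, or 0.585 on the log2 scale. Of the members, 1 probe each of Chek1, Atm and Cdc25c was detected on 0 of 30 arrays and was not tested. The arrays formed 2 sets by signal. The 12 Bub1b_R and Control_R arrays had a lowest detected signal between 12.9 and 20.9, and the 18 arrays of the 3 other clones had one between 27.8 and 58.1. For Chek1_R, Ppm1g_R and Ppp2r1b_R a difference from Control_R crosses the sets, and set and clone cannot be told apart there. Each such clone was therefore also set against the mean of the other clones of its own array set. Dox withdrawal and Bub1b_R against Control_R stay within a set by signal. The Control_R samples carry record numbers from a separate, lower run than those of the other clones. In every comparison with Control_R, that of Bub1b_R included, clone and deposit therefore cannot be told apart.

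All 9 ESC markers on the array were detected on every array, and on Dox withdrawal 3 of the 9 fell in Ppp2r1b_R, 1 in Bub1b_R and 0 in the other clones. Of 10 fibroblast markers, Col1a2, Postn, Lum and S100a4 were detected on 0 arrays and Col1a1, Col6a1, Thy1 and Vim on all 30. On Dox withdrawal, of the 6 tested, 4 rose and 1 fell in Chek1_R, 4 rose in Ppp2r1b_R, 2 rose in Bub1b_R, and 2 rose and 1 fell in Ppm1g_R, with 0 called in Control_R. Beside these marker counts, the share of all tested probes called was 9.27% in Chek1_R, 4.82% in Ppp2r1b_R, 5.6% in Bub1b_R, 4.37% in Ppm1g_R and 1.1% in Control_R. In Chek1_R the mean level of Vim went from 9.21 to 10.79 and that of Dcn from 4.96 to 6.52. The marker that fell was Thy1, from 8.54 to 7.73 in Chek1_R and from 8.2 to 7.59 in Ppm1g_R. The summed level of the fibroblast list (log2, range over 3 arrays) was 10.30 to 10.45 with Dox and 11.22 to 11.45 without it in Chek1_R. It was 10.22 to 10.44 with Dox and 10.88 to 10.97 without in Ppp2r1b_R, and in Control_R it was 10.55 to 10.60 with Dox and 10.53 to 10.67 without. The summed level of the mesoderm and primitive streak genes T, Mixl1, Evx1, Eomes and Fgf5 was 7.44 to 10.33 with Dox. Without Dox it was 10.23 to 12.44 in the 4 clones other than Control_R and 7.65 to 7.82 in Control_R. The summed levels of the fibroblast and the mesoderm lists both rose in these 4 clones, of which Bub1b_R and Ppm1g_R had no member called on Dox withdrawal. The part of these lists in the changes below was not tested. The summed level of 6 proliferation genes on the array was 13.73 to 14.10 over all arrays. Cdc20, the brightest, had condition means of 12.7 to 12.98, and Bub1 was detected on 0 arrays. Top2a, Aurka and Kif11 had means of 11.47 to 12.16, 11.17 to 11.96 and 8.82 to 9.25. Pcna differed by array set, with means of 7.56 to 8.05 in Bub1b_R and Control_R and 9.08 to 9.65 in Chek1_R, Ppm1g_R and Ppp2r1b_R. In bulk RNA, fewer cells of a type and less RNA per cell cannot be told apart.

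Few of these genes were called on Dox withdrawal, near the share over all tested probes. Chek1 rose on the arrays labelled Chek1_R and 1 dim Rad9 probe fell in Ppp2r1b_R, and these were the 2 calls among 17 probes in 5 clones. In Chek1_R 1 of 17 probes was called, beside 9.27% of all tested probes. In Ppp2r1b_R 1 of 17 was called, beside 4.82% of all. In Bub1b_R, Ppm1g_R and Control_R limma called 0 of 17, beside 5.6%, 4.37% and 1.1% of all. At an unadjusted limma p under 0.05 the counts in these 3 clones were 2, 3 and 2, and the methods' t-test gave 2, 1 and 1. The median change over the 17 probes was −0.07 in Bub1b_R, −0.06 in Chek1_R, −0.04 in Ppm1g_R, −0.03 in Ppp2r1b_R and 0.03 in Control_R, beside −0.02 to 0.00 over all tested probes.

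Chek1, the kinase that ATR activates at stalled forks, is the targeted gene of Chek1_R. Its brighter probe (ILMN_2630974) read 5.32, 5.20 and 5.40 with Dox in the 3 replicates of Chek1_R, not detected on any of them, and 6.08, 6.24 and 5.72 without Dox, detected on all 3. All arrays without Dox were above all arrays with Dox. Chek1 was thus at least 1.35-fold higher without Dox, where the rescue copy is off (log2 0.71, SE 0.16, limma adjusted p 0.00115, 9 of 9 array pairs). Such a bound compares the group where the probe was detected with a ceiling for the other group, made per array from the higher of 2 values, the dimmest signal that still counted as detected and the probe's own. If the probe reads the rescue copy, this direction goes against the label, and if it reads only the endogenous mRNA it does not check the label. The mesoderm and primitive streak genes T and Evx1 were higher without Dox on the same arrays, with mean levels of 6.41 and 5.39 with Dox and 10.85 and 9.49 without. Directions in this clone are given as those of the arrays labelled Chek1_R. With an offset of 50 the change was 0.43 and was not called, and the methods' t-test, run per probe with the same adjustment, did not call it either. Leaving out any 1 of the 6 arrays kept the call, at 0.59 to 0.85.

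The dimmer Chek1 probe (ILMN_3009652) was near background in this clone. It read 4.86, 4.94 and 4.91 with Dox, again not detected, and 5.31, 5.30 and 5.65 without, detected on 1 of 3 arrays. The groups did not overlap, and the fitted difference was 0.51 (SE 0.16, adjusted p 0.0132), short of 1.5-fold. With the probe not detected with Dox this size depends on the offset, no bound above 1-fold could be given, and it is not a second measurement of the change. In the other clones the change of the brighter probe lay between −0.27 and −0.09, with none called. In Ppm1g_R both probes were lower on every array without Dox than on every array with Dox, by −0.27 and −0.38, at adjusted p of 0.246 and 0.0832. The change of the brighter probe in Chek1_R exceeded that in Control_R by 0.80 (SE 0.22, adjusted p 0.013). It was the 1 member call among these differences of changes in Chek1_R, beside 8.99% of all tested probes. In Bub1b_R, Ppm1g_R and Ppp2r1b_R limma called 0 of 17, beside 5.15%, 5.27% and 3.28% of all, with 2 probes in each at an unadjusted p under 0.05.

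**Figure D1:**
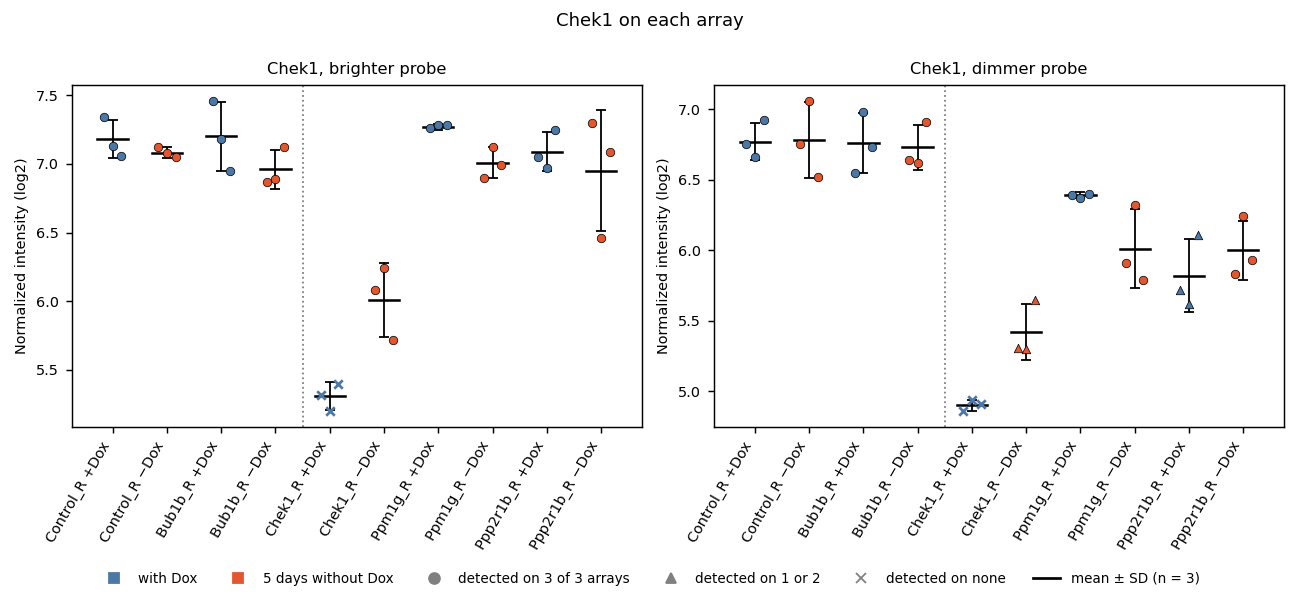
Chek1 on each of the 30 arrays, as normalized log2 intensity for the brighter (left) and dimmer (right) tested probe. Points are arrays, bars are the mean ± SD (n = 3), marker shapes give on how many of the 3 arrays the probe was detected, and the dotted line separates the array sets with the lower and the higher signal. By condition means Chek1_R lies lowest in both panels, and its arrays with Dox are at 5.20 to 5.40 for the brighter probe.

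By condition means the level of Chek1 was lowest in Chek1_R in both Dox states. For the brighter probe, the 8 conditions of the other clones had means from 6.95 to 7.27, and each neighbour in that order overlapped the next. Chek1_R without Dox (6.01 ± 0.27, SD, n = 3) and with Dox (5.31 ± 0.10) lay below all of them with no overlap. Against Control_R, Chek1 was lower by −1.07 without Dox (SE 0.16, adjusted p 3.06e-06) and, with Dox, lower by at least 3.02-fold (adjusted p 1.33e-09), each in 9 of 9 array pairs. The dimmer probe was lower than in Control_R by −1.36 without Dox (limma adjusted p 6.5e-08) and, with Dox, by at least 2.29-fold (adjusted p 1.03e-09). Within the array set, against the mean of Ppm1g_R and Ppp2r1b_R, the brighter probe was lower by −0.96 without Dox (adjusted p 8.8e-06). With Dox it was lower there by at least 3.03-fold (adjusted p 3.61e-10). The dimmer probe differed by −0.59 without Dox (adjusted p 0.00165) and, with Dox, was lower by at least 1.44-fold (adjusted p 3.37e-07) in the same comparison. Its call without Dox was lost when any of 4 single arrays was left out, with values of −0.53 without Chek1_R −Dox replicate 1 or 2, −0.51 without Ppm1g_R −Dox replicate 2 and −0.53 without Ppp2r1b_R −Dox replicate 2, and with an offset of 50 (−0.36). The Chek1 probes were the only 2 of 17 called in either Dox state, beside 4.4% of all tested probes without Dox and 4.83% with Dox.

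The dimmer Chek1 probe was also lower than in Control_R in clones whose shRNA does not target Chek1, with −0.77 in Ppm1g_R and −0.78 in Ppp2r1b_R without Dox (adjusted p 0.000139 and 0.000113). The brighter probe differed there by −0.08 and −0.13 (adjusted p 0.672 and 0.471), so the probes disagree. Both clones lie in the other array set from Control_R, and with an offset of 50 the differences were −0.54 and −0.55, not called. With Dox the dimmer probe was lower by −0.96 in Ppp2r1b_R (adjusted p 1.17e-05) and differed by −0.39 in Ppm1g_R (adjusted p 0.0336, short of 1.5-fold). The 3 genes with a tested probe that followed the brighter Chek1 probe most closely over the 10 condition means were Sec22c, Htra1 and Il28ra. Their Pearson r was 0.906, 0.862 and 0.853. The points share arrays, and these values are descriptions.

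Against Control_R without Dox more of the members were called, as were more of all tested probes. In Bub1b_R 1 of 17 probes was called, beside 22.6% of all tested probes, and in Chek1_R 4 of 17, beside 28.8%. In Ppm1g_R 8 of 17 were called, beside 33.5%, and in Ppp2r1b_R 6 of 17, beside 33.7%. With Dox, limma called 0 of 17 in Bub1b_R, beside 12.7% of all, with 7 probes at an unadjusted p under 0.05 and 6 by the methods' t-test. With Dox 4 of 17 were called in Chek1_R, beside 17.6%, 5 in Ppm1g_R, beside 29.1%, and 6 in Ppp2r1b_R, beside 28.3%. The median difference of the members without Dox was −0.12 in Bub1b_R, −0.26 in Chek1_R, −0.33 in Ppm1g_R and −0.40 in Ppp2r1b_R, beside −0.04 to −0.01 over all tested probes. All these comparisons share the Control_R arrays. Within the higher-signal array set fewer were called. Without Dox 1 of 17 probes was called in Ppm1g_R, beside 10.3% of all, and 2 in Ppp2r1b_R, beside 14.9%. With Dox 4 of 17 were called in Ppm1g_R, beside 9.29%, and 4 in Ppp2r1b_R, beside 7.66%. The mean these clones are set against includes Chek1_R, so the Chek1 probes, which made up 3 of these 8 calls with Dox, are given by the comparison of Chek1_R above.

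**Figure D2:**
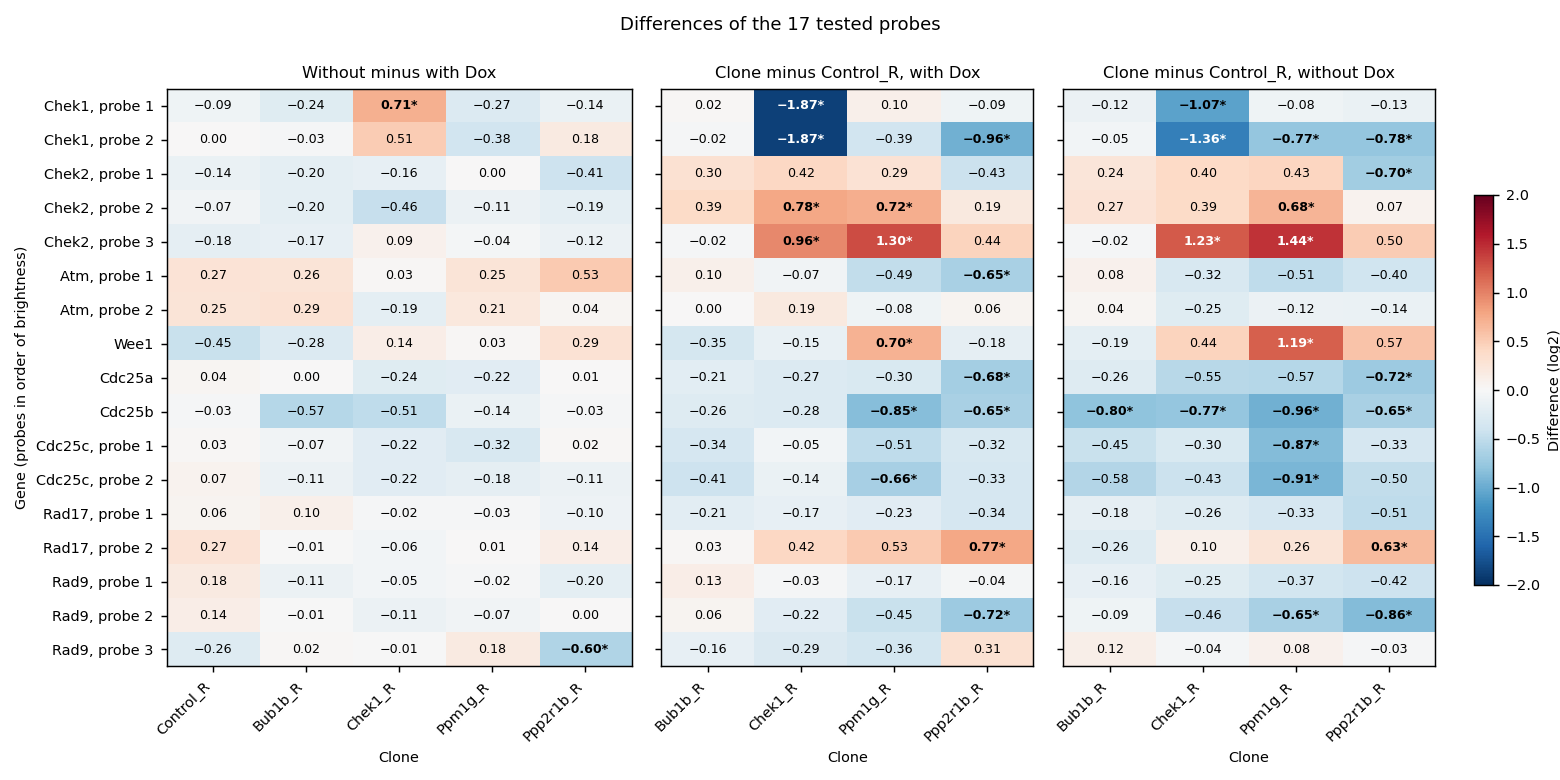
Log2 differences of the 17 tested probes (rows, probes of a gene in order of brightness) for the change on Dox withdrawal in 5 clones (left) and for 4 clones minus Control_R with Dox (middle) and without Dox (right). Colour runs from −2 (blue) to 2 (red), and bold with a star marks a called difference. The left panel holds 2 stars, Chek1 in Chek1_R and Rad9 in Ppp2r1b_R. Where a probe was detected on no array of a group, the number depends on the offset, and for called differences the text gives a bound.

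Chek2 encodes the kinase that ATM activates after double strand breaks. It has 3 tested probes, which agreed in part, with Pearson r over the 10 condition means of 0.72, 0.39 and 0.78 for the 3 pairs. All 3 placed Chek2 higher in Chek1_R and Ppm1g_R than in Ppp2r1b_R.

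The brightest Chek2 probe (ILMN_2633492) was detected on 30 of 30 arrays. In Ppp2r1b_R it read 7.91, 8.27 and 8.10 with Dox and 7.63, 7.54 and 7.88 without, the lowest means of the 10 conditions. The change on Dox withdrawal was −0.41 (SE 0.10, adjusted p 0.00406), with no overlap but short of 1.5-fold. In Control_R it read 8.50, 8.54 and 8.52 with Dox and 8.59, 8.13 and 8.43 without. Without Dox, this probe was lower in Ppp2r1b_R than in Control_R by −0.70 (SE 0.10, adjusted p 1.92e-06, 9 of 9 array pairs). The second and the dimmest Chek2 probe differed there by 0.07 and 0.50 (limma adjusted p 0.604 and 0.0433, neither called), so the probes disagree. Within the array set the brightest probe was lower in Ppp2r1b_R by −1.11 without Dox (SE 0.09, adjusted p 1.97e-10) and by −0.78 with Dox (adjusted p 1.56e-07). The clones of that mean, Chek1_R and Ppm1g_R, lay above Control_R on this probe, so these values do not give the size of the difference from Control_R. In Bub1b_R, Chek1_R and Ppm1g_R this probe was above Control_R by 0.24 to 0.43 in both Dox states, always at an adjusted p under 0.05 and never by 1.5-fold.

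The second Chek2 probe (ILMN_1247062) in Chek1_R read 8.61, 8.72 and 8.53 with Dox and 8.18, 8.16 and 8.12 without. Every array without Dox was lower, and the change was −0.46 (SE 0.11, adjusted p 0.00214), short of 1.5-fold. The brightest and the dimmest probe changed in Chek1_R by −0.16 and 0.09 (limma adjusted p 0.26 and 0.816). The change of the second probe did not differ significantly from that in Control_R (−0.39, adjusted p 0.0884). With Dox this probe was higher than in Control_R by 0.78 in Chek1_R (adjusted p 3.8e-06) and by 0.72 in Ppm1g_R (adjusted p 5.76e-06). Without Dox it was higher in Ppm1g_R by 0.68 (adjusted p 9.77e-06), or 0.57 without Ppm1g_R −Dox replicate 2, which is under the limit. Against the other clones of its array set Ppm1g_R was at 0.23 with Dox (adjusted p 0.0576) and 0.45 without (adjusted p 0.000431), and Chek1_R at 0.33 with Dox (adjusted p 0.0118) and 0.01 without (adjusted p 0.943), none called.

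The dimmest Chek2 probe (ILMN_2856599) differed most in level between the array sets. It read 6.60, 6.90 and 6.65 in Ppm1g_R with Dox and 5.44, 5.46 and 5.34 in Control_R with Dox, where it was detected on none. With Dox it was at least 2.29-fold higher in Ppm1g_R (adjusted p 1.31e-05) and at least 1.81-fold higher in Chek1_R (adjusted p 0.000679) than in Control_R. Without Dox the differences were 1.44 and 1.23 (adjusted p 2.84e-06 and 2.86e-05), with detection on 1 of 3 Control_R arrays. In Bub1b_R, which shares the array set of Control_R, the differences were −0.02 in both Dox states. Within the higher-signal set, Ppm1g_R was above the mean of the other clones by 0.60 with Dox (called, adjusted p 0.0122) and 0.58 without (not called, adjusted p 0.0143). Ppp2r1b_R was below it by −0.69 with Dox and −0.83 without (both called, adjusted p 0.00447 and 0.00056). The genes most like the brightest Chek2 probe over the 10 condition means were Hus1 (r 0.975), Ppan (r 0.973) and Ebna1bp2 (r 0.973), as a description. Hus1 encodes a partner of Rad9 in the checkpoint clamp.

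Wee1 encodes the kinase that holds cyclin-dependent kinases inactive. Its single probe (ILMN_1228358) was dim, detected on 9 of 30 arrays, 6 of which were the arrays of Ppm1g_R. There it read 6.07, 6.27 and 6.37 with Dox and 6.53, 6.12 and 6.16 without, above every array of the other clones. Control_R read 5.96, 5.37 and 5.27 with Dox and 5.02, 5.12 and 5.11 without. Without Dox, Wee1 was at least 1.82-fold higher in Ppm1g_R than in Control_R, which was not detected (adjusted p 1.23e-06, 9 of 9 array pairs). With Dox the difference was 0.70 (SE 0.17, adjusted p 0.000805), or 0.57 without Control_R +Dox replicate 3 and 0.44 with an offset of 50, both under the limit. Within the array set Wee1 was higher in Ppm1g_R by 0.68 without Dox (SE 0.14, adjusted p 0.000432) and at least 1.49-fold higher with Dox (adjusted p 3.16e-05), so it was also higher without crossing the sets. Dox withdrawal changed Wee1 by 0.03 in Ppm1g_R (SE 0.17, adjusted p 0.924).

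In Control_R Wee1 was detected on 1 of 3 arrays with Dox and on none without, and the fitted change was −0.45 (limma adjusted p 0.104, not called). The changes in Ppp2r1b_R and Chek1_R exceeded that of Control_R by 0.75 and 0.59, at adjusted p of 0.0507 and 0.0864. The genes most like Wee1 over the 10 condition means were 5830433M19Rik (r 0.941), Hydin (r 0.93) and Trim23 (r 0.922).

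Atm encodes the kinase that senses double strand breaks. Its brightest probe (ILMN_1258206) was detected on 27 of 30 arrays. With Dox it read 5.93, 5.51 and 5.42 in Ppp2r1b_R and 6.01, 6.20 and 6.62 in Control_R, which do not overlap. The difference was −0.65 (SE 0.20, adjusted p 0.00749), and it fell under the limit at −0.55 without Ppp2r1b_R +Dox replicate 3 and −0.48 without Control_R +Dox replicate 3, and at −0.42 with an offset of 50. Against the other clones of its array set the difference was −0.37 (adjusted p 0.0966). On Dox withdrawal Atm in Ppp2r1b_R changed by 0.53 (adjusted p 0.0573), with values of 6.65, 5.64 and 6.15 that overlap those with Dox. The second probe was detected on 7 of 30 arrays and was called in no comparison.

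**Figure D3:**
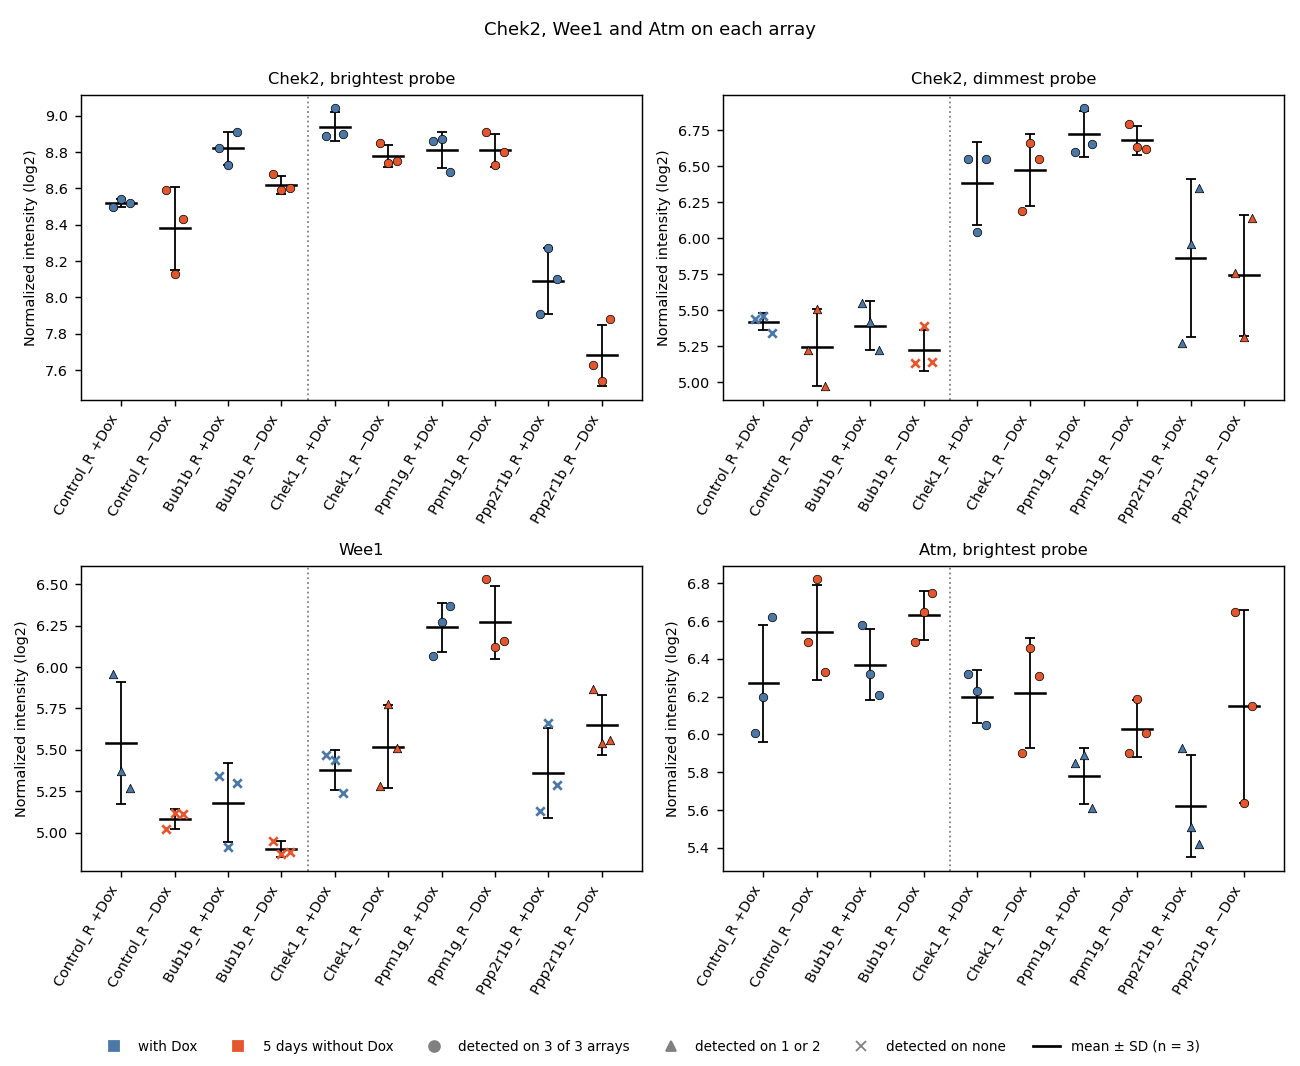
Chek2 (brightest and dimmest tested probe), Wee1 and Atm (brightest probe) on each of the 30 arrays, as normalized log2 intensity. Points are arrays, bars are the mean ± SD (n = 3), marker shapes give on how many of the 3 arrays the probe was detected, and the dotted line separates the array sets. By condition means Ppp2r1b_R is lowest for the brightest Chek2 probe, and the Ppm1g_R arrays, at 6.07 to 6.53, are highest for Wee1.

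The Cdc25 phosphatases remove the inhibitory phosphate from cyclin-dependent kinases and are the targets of CHK1 and CHK2. All 3 genes had their highest condition mean in Control_R. Cdc25a, which acts from the entry into S phase, was bright, with 9.81, 9.89 and 9.82 in Control_R without Dox and 9.84, 9.75 and 9.80 with it. In Ppp2r1b_R it read 9.05, 9.23 and 9.09 without Dox and 9.26, 9.01 and 9.08 with it. Cdc25a was lower in Ppp2r1b_R by −0.72 without Dox (SE 0.09, adjusted p 1.02e-07) and by −0.68 with Dox (adjusted p 3.21e-07), each in 9 of 9 array pairs. The other clones lay between. Without Dox they differed from Control_R by −0.26 in Bub1b_R, −0.55 in Chek1_R and −0.57 in Ppm1g_R (adjusted p 0.0132, 6.88e-06 and 3.21e-06), all with no overlap and all short of 1.5-fold. Bub1b_R is in the same array set as Control_R. Within the higher-signal set Ppp2r1b_R was below the other clones by −0.16 without Dox (adjusted p 0.0782) and by −0.40 with Dox (adjusted p 0.000141), neither called.

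On Dox withdrawal Cdc25a changed by −0.24 in Chek1_R (SE 0.09, adjusted p 0.0369), from 9.52, 9.59 and 9.48 to 9.28, 9.35 and 9.25. The groups did not overlap, and the change was short of 1.5-fold. In the other clones it changed by −0.22 (Ppm1g_R) to 0.04 (Control_R), at adjusted p from 0.0605 to 0.995.

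Cdc25b, which acts at the entry into mitosis, was dim and was detected on 21 of 30 arrays. Without Dox it read 6.28, 6.52 and 6.35 in Control_R and 5.69, 5.26 and 5.79 in Bub1b_R. It read 5.54, 5.72 and 5.58 in Chek1_R, 5.45, 5.55 and 5.26 in Ppm1g_R and 5.83, 5.94 and 5.43 in Ppp2r1b_R. Every array of the 4 clones was below every array of Control_R, and Cdc25b was the 1 gene called in all 4 clones without Dox. These 4 comparisons share the Control_R arrays, so they are not independent. Each alone called 22.6% to 33.7% of all tested probes, and the share called in all 4 was not counted. It was lower by −0.80 in Bub1b_R (SE 0.17, adjusted p 0.000391), by −0.77 in Chek1_R (adjusted p 0.000521) and by −0.65 in Ppp2r1b_R (adjusted p 0.00217). In Ppm1g_R, where no array detected it, it was lower by at least 1.67-fold (adjusted p 3.53e-05). The difference in Bub1b_R lies within 1 array set. With an offset of 50 it was −0.52, and the differences in Chek1_R and Ppp2r1b_R were −0.50 and −0.43, none of them called. Without Control_R −Dox replicate 2 or Ppp2r1b_R −Dox replicate 3 the difference in Ppp2r1b_R was −0.58 or −0.50 and was not called.

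With Dox, Cdc25b was lower than in Control_R in Ppm1g_R (−0.85, adjusted p 0.00017) and Ppp2r1b_R (−0.65, adjusted p 0.0024). The latter call was lost without Ppp2r1b_R +Dox replicate 1 (−0.43) or Control_R +Dox replicate 3 (−0.57), and both with an offset of 50 (−0.55 and −0.43). Within the array set Ppm1g_R was lower by −0.38 with Dox (adjusted p 0.0439) and −0.26 without (adjusted p 0.18), and Ppp2r1b_R differed by −0.08 and 0.22, none called. In Bub1b_R and Chek1_R the differences with Dox were −0.26 and −0.28, not called. On Dox withdrawal Cdc25b went from 6.28, 5.96 and 6.22 to the values above in Bub1b_R and from 6.21, 6.11 and 6.08 in Chek1_R. Neither pair of groups overlapped. The changes were −0.57 (SE 0.17, adjusted p 0.0164) and −0.51 (SE 0.17, adjusted p 0.0257), just short of 1.5-fold. In Bub1b_R it passed the limit when Bub1b_R +Dox replicate 2, Bub1b_R −Dox replicate 1 or Bub1b_R −Dox replicate 3 was left out, at −0.67, −0.63 and −0.68. In Ppm1g_R, Ppp2r1b_R and Control_R the changes were −0.14, −0.03 and −0.03. The changes in Bub1b_R and Chek1_R were not shown to differ from that in Control_R, at −0.54 and −0.48 with adjusted p of 0.162 and 0.193.

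Cdc25c, another activator of mitotic entry, has 2 bright probes that agreed (r 0.98 over the 10 condition means). The brighter one (ILMN_1252063) read 9.12, 9.37 and 9.14 in Control_R without Dox and 8.59, 8.15 and 8.29 in Ppm1g_R without Dox, the lowest condition. The groups did not overlap. Cdc25c was lower in Ppm1g_R by −0.87 on this probe (SE 0.11, adjusted p 1.47e-07) and by −0.91 on the other (adjusted p 6.72e-08). With Dox the differences were −0.51, short of the limit, and −0.66 (adjusted p 0.000204 and 9.05e-06). Among the higher-signal clones Ppm1g_R was lower by −0.55 and −0.45 without Dox (adjusted p 2.63e-05 and 0.00031), past the adjusted p but not the fold limit. With Dox the values there were −0.33 and −0.42 (adjusted p 0.00599 and 0.000601), not called either. In Bub1b_R without Dox the probes differed from Control_R by −0.45 and −0.58 (adjusted p 0.000916 and 5.24e-05), short of the limit and within 1 array set. On Dox withdrawal the brighter probe changed by −0.32 in Ppm1g_R (adjusted p 0.0279, groups overlapping) and the other by −0.18 (adjusted p 0.234).

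**Figure D4:**
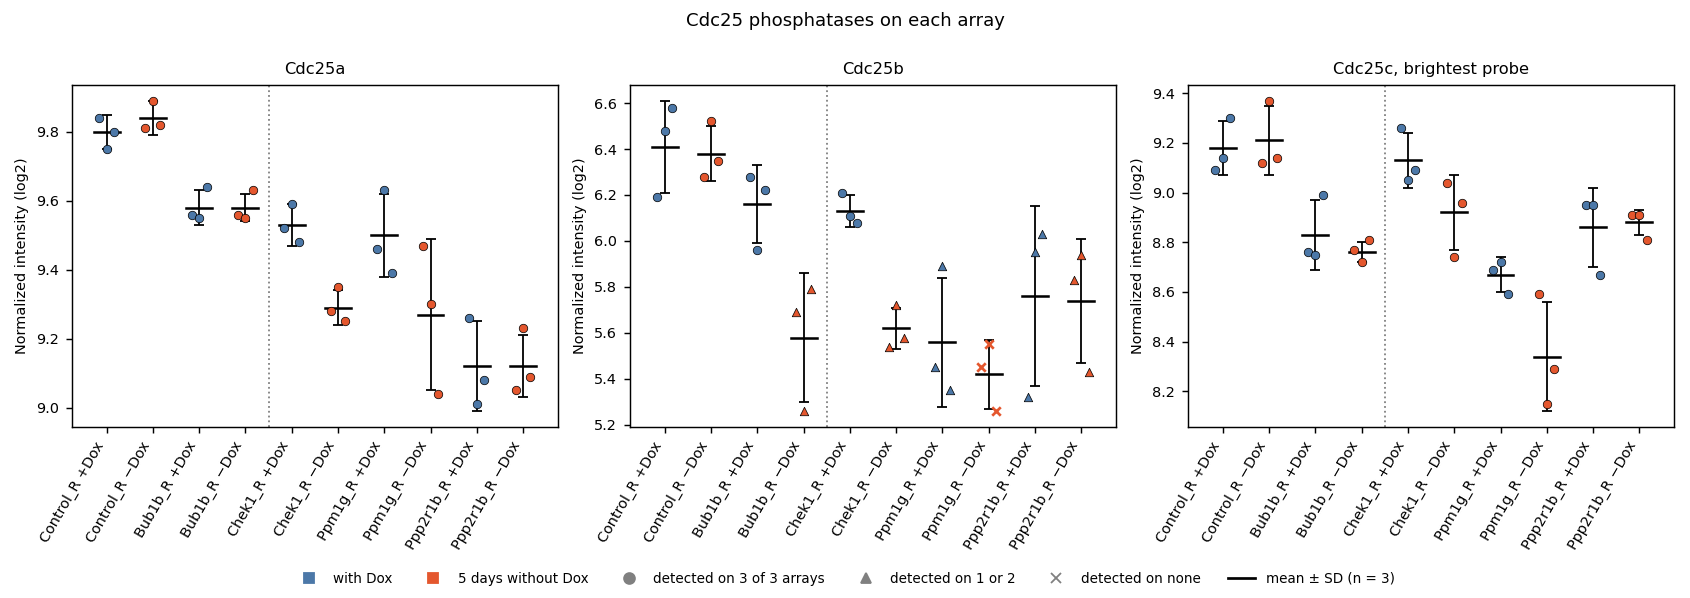
Cdc25a, Cdc25b and Cdc25c (brighter probe) on each of the 30 arrays, as normalized log2 intensity, with the mean ± SD (n = 3). Marker shapes give on how many of the 3 arrays the probe was detected, and the dotted line separates the array sets. By condition means Control_R is highest in each panel, Ppp2r1b_R lowest for Cdc25a and Ppm1g_R without Dox lowest for Cdc25b and Cdc25c.

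Rad17 and Rad9 act before the kinases, at the loading of the clamp. The bright Rad17 probe (ILMN_3104289) had condition means from 8.85 to 9.35, and every neighbour in their order overlapped the next. It was called in no comparison, and its widest difference from Control_R was −0.51, in Ppp2r1b_R without Dox (adjusted p 1.76e-05). The dim Rad17 probe (ILMN_1222143), detected on 8 of 30 arrays, went the other way over the conditions (r −0.77). In Ppp2r1b_R it read 5.54, 5.35 and 6.48 with Dox, detected on 1 array, and 6.10, 5.63 and 6.05 without, detected on 3. In Control_R it read 5.13, 4.92 and 5.00 with Dox and 5.57, 5.24 and 5.08 without. It was higher in Ppp2r1b_R by 0.63 without Dox (adjusted p 0.0114) and at least 1.20-fold higher with Dox (adjusted p 0.00303). The first call was lost without Ppp2r1b_R −Dox replicate 1 (0.55), Ppp2r1b_R −Dox replicate 3 (0.57) or Control_R −Dox replicate 3 (0.52), and the second without Ppp2r1b_R +Dox replicate 3 (0.42). With an offset of 50 neither was called (0.37 and 0.45). The Rad17 probes disagree, so no direction is given for the gene.

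For Rad9, the brightest probe (ILMN_2670507) had condition means from 8.38 to 8.80 and was called in no comparison, with −0.42 in Ppp2r1b_R and −0.37 in Ppm1g_R against Control_R without Dox (adjusted p 0.000172 and 0.00062). The second (ILMN_2933993) followed it (r 0.83). Without Dox it read 6.46, 7.10 and 7.11 in Control_R, 6.29, 6.19 and 6.24 in Ppm1g_R and 6.16, 6.01 and 5.93 in Ppp2r1b_R. It was lower by −0.65 (adjusted p 0.00785) and −0.86 (adjusted p 8e-04), and in Ppp2r1b_R also with Dox (−0.72, adjusted p 0.00413). Against the other higher-signal clones the differences without Dox were 0.01 and −0.30, and that of Ppp2r1b_R with Dox was −0.39 (adjusted p 0.0872), none called. Without Control_R −Dox replicate 2 or 3 the difference in Ppm1g_R was −0.54, and the call with Dox in Ppp2r1b_R was lost without Ppp2r1b_R +Dox replicate 1 (−0.41) or Control_R +Dox replicate 2 (−0.55). With an offset of 50 these 2 differences were −0.48 and −0.50, not called.

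The dimmest Rad9 probe (ILMN_1237627) gave the other call on Dox withdrawal. In Ppp2r1b_R it read 6.96, 6.53 and 5.99 with Dox and 6.05, 5.72 and 5.89 without, so the groups overlap. The change was −0.60 (SE 0.22, adjusted p 0.0481, 8 of 9 array pairs). The other Rad9 probes changed there by −0.20 and 0.00, and the change was not shown to differ from the −0.26 in Control_R (adjusted p 0.564). With Dox this probe was higher in Ppp2r1b_R than in the other clones of its array set by 0.64 (adjusted p 0.0099), while the difference from Control_R was 0.31 (adjusted p 0.226). The methods' t-test did not call it, and with an offset of 50 it was −0.42 and was not called. The call was lost when any of 5 of the 6 arrays was left out, at −0.37 without Ppp2r1b_R +Dox replicate 1, −0.59 without +Dox replicate 2, −0.69 without −Dox replicate 1, −0.52 without −Dox replicate 2 and −0.61 without −Dox replicate 3.

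The other genes of the pathway were read from 5 lists by their brightest tested probe. Of 14 tested genes of the ATR axis, such as Atrip, Clspn, Topbp1 and the clamp loader subunits, 1 was called on Dox withdrawal, Rad1 in Ppp2r1b_R, beside 4.82% of all tested probes, so that 1 of 14 is near the background. Rad1, the partner of Rad9 in the clamp, changed there by −0.60 (adjusted p 3.31e-05), with no overlap of the groups, beside −0.16 in Control_R (adjusted p 0.316). The list's median change was −0.19 in Ppp2r1b_R and −0.10 to 0.01 in the other clones. Against Control_R without Dox, which crosses the array sets, 5 of the 14 were lower in Ppp2r1b_R, with a median of −0.29. Of all 15151 tested probes 2586 were called lower there, and 33.7% were called in either direction. In Bub1b_R and Chek1_R 1 of the 14 was lower, and in Ppm1g_R 0, beside 22.6%, 28.8% and 33.5% of all tested probes called in either direction. Of 8 tested genes of the ATM axis, such as Nbn, Mdc1 and Brca1, limma called 0 on Dox withdrawal in each clone, with 0 to 3 at an unadjusted p under 0.05 and medians from −0.11 to 0.06, beside 1.1% to 9.27% of all tested probes called. Compared with Control_R without Dox, 1 of the 8 was higher in Ppm1g_R and in Ppp2r1b_R, beside 33.5% and 33.7% of all tested probes called in either direction. In Bub1b_R and Chek1_R it was 0 of the 8, beside 22.6% and 28.8%.

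Of 11 tested genes of the cyclin-dependent kinase entry module, Ccne2 (cyclin E2, which drives entry into S phase) rose on Dox withdrawal in all 5 clones, Control_R included. It rose by 1.08 in Bub1b_R, 0.86 in Chek1_R, 0.67 in Ppm1g_R, 0.69 in Ppp2r1b_R and 0.65 in Control_R, at adjusted p from 1.57e-05 to 0.0125, with the groups overlapping in Control_R alone. Plk3, a stress-responsive Polo-like kinase, fell by 1.02 in Chek1_R (adjusted p 2.25e-11). Its change was −0.49 in Control_R, −0.44 in Bub1b_R and −0.40 in Ppp2r1b_R, each at an adjusted p under 0.05 and short of 1.5-fold, and −0.15 in Ppm1g_R (adjusted p 0.128). Against Control_R without Dox at most 1 gene of this module was called in each direction in each clone. Of all tested probes 22.6% to 33.7% were called there in either direction. Of 12 tested genes that degrade or anchor Cdc25 and Wee1, Sfn (14-3-3 sigma) rose by 0.91 in Bub1b_R, 1.06 in Chek1_R, 0.72 in Ppm1g_R and 0.62 in Control_R, and its change in Ppp2r1b_R was 0.52, short of the limit. Against Control_R without Dox 5 of these 12 were higher in each of Chek1_R, Ppm1g_R and Ppp2r1b_R. Of all 15151 tested probes, 2138, 2526 and 2520 were called higher there. In Ppp2r1b_R 1 of the 12 was also lower, beside 2586 of all tested probes. In Bub1b_R 1 of the 12 was higher, beside 1653 of all. Called in either direction were 28.8%, 33.5%, 33.7% and 22.6% of all tested probes in Chek1_R, Ppm1g_R, Ppp2r1b_R and Bub1b_R. Of 6 tested p53 arrest targets, Sesn2 (sestrin 2) fell by 0.63 in Ppp2r1b_R (adjusted p 0.000601), beside −0.52 in Control_R (adjusted p 0.00977). Without Dox 2 of the 6 were lower than in Control_R in Ppp2r1b_R, 1 in Bub1b_R and 0 in the other clones. Of all tested probes 33.7% were called in either direction in Ppp2r1b_R, 22.6% in Bub1b_R, 28.8% in Chek1_R and 33.5% in Ppm1g_R. Genes of these lists that are not named were not called on Dox withdrawal.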

How the data were processed

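The authors deposited, for each probe of an Illumina mouse WG-8 array, an intensity that is not normalized between arrays, and a detection p-value. The submitters' notes name lumi. The deposited columns for 2 arrays, Ppm1g_R −Dox replicate 2 and Bub1b_R −Dox replicate 2, hold 46 and 14 detection p-values as spreadsheet dates. Of these 28 and 6 were converted back and 18 and 8 took the value of the probe with the nearest signal.

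Intensities were normalized with neqc in limma 3.58.1 (R 4.3.3, offset 16), and probes detected on at least 3 of 30 arrays entered 1 limma fit of 10 condition means without covariates (20 residual and 3.38 prior degrees of freedom), checked on simulated data. The number of arrays limits the precision. An array pair sets 1 array of a condition against 1 of the other, 9 pairs in all. The brightest probe stands for a gene in the pathway lists, of which the text names up to 3 genes each, those with the largest change among the ones called on Dox withdrawal. Likeness is Pearson's r over condition means, given for Chek1 and the 2 further members with the widest range of means. Members and lists were chosen with earlier results of these data known. Alternatives were leaving out the background correction (with signals below 1 raised to 1), median scaling, an offset of 50, no detection filter or a strict one (all 3 arrays of a condition below a detection p of 0.01), only the arrays compared, the replicate number as a block, no fold limit, the methods' t-test (Student's, per probe, with the same adjustment and limits), and leaving out each array. The comparisons within the higher-signal array set were an addition made after seeing the data. The shRNA sequences come from the study's supplementary list.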

Additional observations from a re-analysis of the deposited data

Results flagged for a closer look

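The change of Chek1 on Dox withdrawal differed between clones. On the arrays labelled Chek1_R the brighter probe rose while in Control_R it changed by −0.09, and limma's test of the difference between these changes gave 0.80 on the log2 scale (SE 0.22, adjusted p 0.013). The probe was detected on 0 of 3 arrays of Chek1_R with Dox, so the size depends on the offset: with an offset of 50 it was 0.50 (adjusted p 0.0322), short of 1.5-fold. The dimmer Chek1 probe gave 0.51 (adjusted p 0.115). Leaving out any 1 of the 12 arrays kept the call of the brighter probe, at 0.69 to 0.95.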

How the results depend on the processing

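Of 48 results for single member probes, leaving out 1 array at a time changed a call in the cases given above. Against the other clones of the array set in place of Control_R, 16 of the 25 calls of Ppm1g_R and Ppp2r1b_R were lost, 5 changed sign and 4 held. Among the other alternatives the offset of 50 ended 17 calls, the methods' t-test 10, no background correction 3, median scaling 3, the arrays compared alone 3 and no detection filter 1, the strict filter and the block ended none, and none of these turned a direction. The cause was not tested. The t-test ended calls of Chek1, Rad9, Rad17, Wee1, Atm and Cdc25b, and median scaling those of Rad9 on Dox withdrawal, Rad17 in Ppp2r1b_R without Dox and Cdc25c in Ppm1g_R with Dox (−0.46). Without background correction Wee1 in Ppm1g_R with Dox was 1.11 above Control_R and Rad17 in Ppp2r1b_R without Dox was 1.26 above it, neither called.

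For Chek1 on Dox withdrawal in Chek1_R, the change was 0.43 with an offset of 50 and 0.71 by the methods' t-test, neither called, 1.24 without background correction, called, and 0.59 to 0.85 with 1 array left out. The dimmer probe was at 3.0 without background correction, called. Counts of called member probes are given below by setting. On Dox withdrawal the counts in Bub1b_R, Chek1_R and Ppp2r1b_R, 0, 1 and 1 as reported, became 2, 2 and 0 without background correction. In Ppp2r1b_R the count was 0 with median scaling, an offset of 50, no detection filter, the arrays compared alone or the methods' t-test, and in Chek1_R it was 0 with an offset of 50 or the t-test. Without a fold limit it was 1 in Bub1b_R, 5 in Chek1_R, 1 in Ppm1g_R and 2 in Ppp2r1b_R. With 1 array left out it was 0 to 1 in Bub1b_R and Ppp2r1b_R. For the change in Chek1_R against that in Control_R, the count of 1 became 2 without background correction, 0 with an offset of 50 and 1 to 2 with 1 array left out (2 without Chek1_R −Dox replicate 1, Control_R +Dox replicate 3 or Control_R −Dox replicate 2), and in Ppp2r1b_R it was 0 to 1 (1 without Ppp2r1b_R +Dox replicate 2, Control_R +Dox replicate 2 or Control_R +Dox replicate 3).

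Against Control_R without Dox, Bub1b_R had 3 without background correction, 0 with an offset of 50, 6 without a fold limit and 1 to 2 with 1 array left out (2 without Bub1b_R −Dox replicate 1 or 3 or Control_R −Dox replicate 1). Without a fold limit Chek1_R had 12, Ppm1g_R 13 and Ppp2r1b_R 12, Ppp2r1b_R had 3 with an offset of 50, and within the array set Ppm1g_R had 1 and Ppp2r1b_R 2. With Dox and no fold limit Bub1b_R had 5, Ppm1g_R 12 and Ppp2r1b_R 10. There Ppm1g_R had 3 with an offset of 50 and 4 to 8 with 1 array left out (8 without Control_R +Dox replicate 1), and Ppp2r1b_R had 2 with an offset of 50 and 2 by the t-test. For Chek1_R against the mean of Ppm1g_R and Ppp2r1b_R, the count with Dox became 4 without background correction and 10 without a fold limit. Without Dox it became 1 with an offset of 50, 6 without a fold limit and 1 to 2 with 1 array left out.

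Of the 5 sign changes within the array set, 3 were of the dimmer Chek1 probe, where the reference includes Chek1_R with its low Chek1, so they do not bear on the difference from Control_R. These were at 0.30 in Ppm1g_R and 0.28 in Ppp2r1b_R without Dox and at 0.17 in Ppp2r1b_R with Dox. The second Rad9 probe was at 0.01 in Ppm1g_R without Dox and Cdc25b at 0.22 in Ppp2r1b_R without Dox.

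With the replicate number as a block, all 48 probe results kept their call, with Chek1 in Chek1_R at 0.71. The numbers did not pair the arrays, since in 0 of 45 pairs of conditions were all 3 correlations of same-numbered arrays over 0.1. Median scaling moved the median of all tested probes in Ppp2r1b_R against Control_R from −0.044 to −0.18 without Dox and from −0.042 to −0.179 with it, in Bub1b_R without Dox from −0.009 to 0.101, and in Chek1_R against the other higher-signal clones without Dox from 0.018 to 0.155. The number of arrays, 3 per condition, and signals near background limit the precision for Wee1, Atm, Cdc25b, the dim Rad17 probe and Chek1 in Chek1_R.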
